A study of Mus with 18 samples.

Results

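The 44 genes described here encode the adaptors, kinases, NF-kB subunits, inhibitors and ubiquitin editors that carry a signal from Toll-like receptors (TLRs) to NF-kB. They were taken by gene symbol from a list of pathway genes. The list has no threshold on measured values, but it was drawn up with earlier results of these data known. All 44 were found among the 35510 genes of the count table, and all 44 were among the 13482 genes abundant enough to be tested. The cells were RAW264.7, an established mouse line with macrophage traits, and their RNA was sequenced in 6 groups of 3 libraries. According to the labels 1 group had no treatment, 1 group was stimulated by LPS, the lipopolysaccharide of Gram-negative bacteria, and 4 groups received POx-SA, PPLG-SA, PPLG-2V-SA or PPLG-4V-SA following LPS. The series design calls these additions sialic polymers, and the title names Siglecs, receptors on immune cells for sialic acid. The labels give no dose, time, carrier or meaning of the codes, and no group received a polymer without LPS. They do not say whether the 3 libraries of a group came from separate cultures, so p-values measure only the spread between these libraries.

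As background, LPS is bound by TLR4 with its co-receptor MD-2, and the receptor recruits the adaptor pairs TIRAP and MyD88 or TRAM and TRIF. The MyD88 arm assembles IRAK kinases and the ubiquitin ligase TRAF6, which activate the kinase TAK1 and then the IkB kinases. The IkB kinases mark IkB proteins for destruction, so that NF-kB dimers enter the nucleus. NF-kB then raises transcription of its own inhibitors, among them Nfkbia and Tnfaip3, and in macrophages these feedback genes, with the inhibitory Irak3, are known for limiting repeated responses to LPS. These data are RNA levels and hold no measure of protein, of phosphorylation or of nuclear NF-kB.

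Values per library below are CPM, the counts scaled to a common library size with TMM factors. Log2 fold changes are given ± SE from edgeR's quasi-likelihood test, and the adjusted p is that of Benjamini and Hochberg over all 13482 genes. A gene is said to rise or fall, or to be called, where this p lay below 0.05. The 95% intervals given for genes that were not called are not adjusted for the number of genes. Library totals were 9755591 to 19759549 counts, and the raw count of a member in a library was 44 to 17370. Libraries within LPS and within POx-SA after LPS differed more (chi-square per degree of freedom 12.2 to 76.4) than those within the other groups (2.54 to 13.4). Replicates 3 of these groups deviated from their group means together (correlation across genes 0.739). Sums of marker genes are CPM on plain library totals, without TMM factors. They cannot be set against the TMM-scaled values of single genes. The 10 macrophage identity genes were all detected and summed to 8567 to 9456 CPM in the untreated libraries and to 3826 to 6193 CPM in the other groups. They did not move together. Of the identity genes read singly, the lysozyme gene Lyz2 was highest in the untreated libraries. It stood at 7742 ± 508 CPM untreated, 3747 ± 445 CPM with LPS and 839 to 863 CPM in the means of the PPLG groups. Adgre1, which encodes the macrophage antigen F4/80, stood at 65.4 ± 0.597 CPM untreated, 48.8 ± 2.06 CPM with LPS alone, 33.0 ± 5.84 CPM with POx-SA and 363 to 585 CPM in the means of the PPLG groups. Csf1r, the receptor gene for the growth factor of macrophages, stood at 277 ± 5.12 CPM with LPS alone, 499 ± 47.2 CPM with POx-SA and 582 ± 42.4 CPM with PPLG-2V-SA. Neutrophil and mast cell markers summed to 1951 to 2155 CPM untreated, 155 to 239.9 CPM with LPS, 32.4 to 63.9 CPM with POx-SA and at most 0.230 CPM with any PPLG polymer. Of these 9 markers only 2 were abundant enough to be tested, and Elane, Tpsb2, Cpa3 and Mcpt4 had no count in any library. The sum therefore rests on few of the listed genes. Fibroblast, lymphocyte and epithelial or endothelial markers summed to at most 10.4, 1.57 and 4.32 CPM in a library. The part of the moving marker lists in the results on the pathway was not tested.

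Some LPS-inducible genes were already abundant in the libraries labelled as untreated. Nos2, the inducible nitric oxide synthase, stood at 2489 ± 96.6 CPM there against 1254 ± 102 CPM with LPS. Ptgs2, the inducible cyclooxygenase, stood at 4505 ± 214 CPM untreated and 7247 ± 2535 CPM with LPS. The chemokine gene Cxcl2 stood at 2633 ± 119 CPM untreated and 911 ± 162 CPM with LPS. Each direction given against the untreated group is therefore a direction against the libraries labelled as untreated, and not against cells shown to be resting. Other LPS-inducible genes were lower untreated. Tnf stood at 323 ± 11.4 CPM untreated and 839 ± 138 CPM with LPS. Il6 stood at 5.91 ± 0.668 CPM untreated and 17.6 ± 4.55 CPM with LPS. Il1b was at 19.5 ± 3.98 CPM untreated and 17.6 ± 0.981 CPM with LPS.

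In each comparison with LPS or with untreated cells a large share of all genes was called, and the share of members called was of the same order. After LPS 27 of 44 members (61.4%) were called, against 59.2% of all genes tested. With POx-SA against LPS they were 24 (54.5%, against 46.3% of all genes), with PPLG-SA 27 (61.4%, against 59.9%), with PPLG-2V-SA 33 (75.0%, against 61.0%) and with PPLG-4V-SA 28 (63.6%, against 55.1%). The number of called members is thus not by itself a result about these genes, and the account below turns on which members moved and by how much. Calls with POx-SA depended more on the fit. With only the 2 groups compared in the fit, 24.6% of all genes were called for POx-SA against LPS. For the PPLG polymers against LPS the share was then 53.1% to 58.3%. Of the members called for POx-SA in its fit of 2 groups 12.5% were higher, in place of 29.2%. Of the 24 calls of members with POx-SA, 16 held under every alternative.

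**Figure D1:**
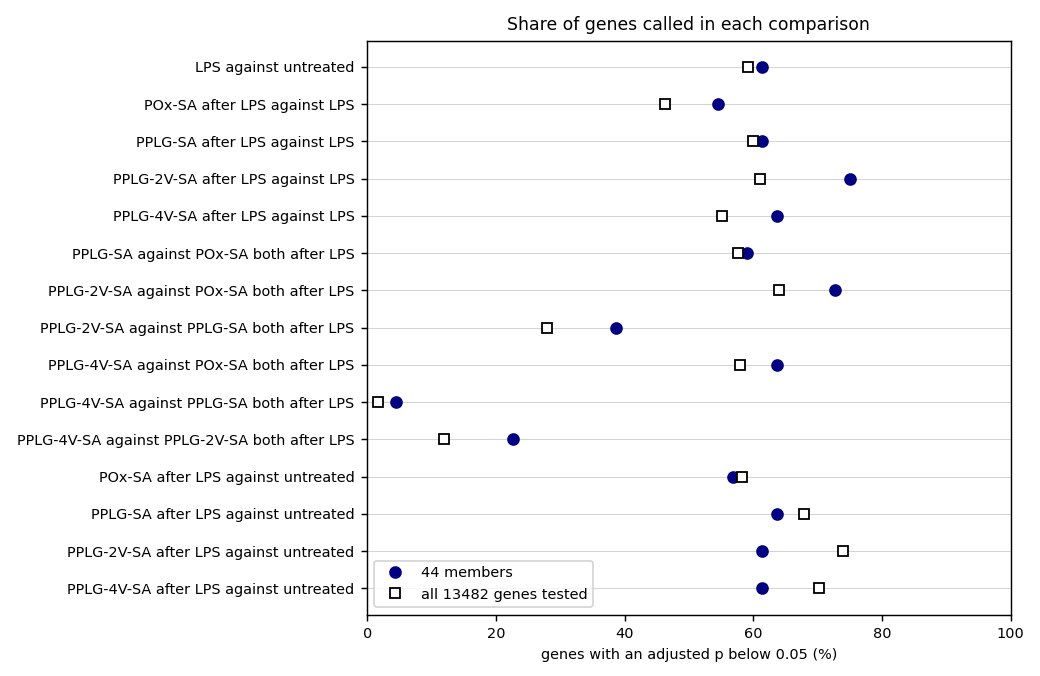
Share of genes with an adjusted p below 0.05 (x axis, percent) in each of 15 comparisons (y axis). Filled circles are the 44 members and open squares all 13482 genes tested. The circle lies right of the square in some comparisons, as at 75.0% and 61.0% for PPLG-2V-SA against LPS and at 22.7% and 12.0% for PPLG-4V-SA against PPLG-2V-SA. It lies left of it in others, as at 61.4% and 74.0% for PPLG-2V-SA against untreated, and near it at 61.4% and 59.2% for LPS against untreated.

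**Figure D2:**
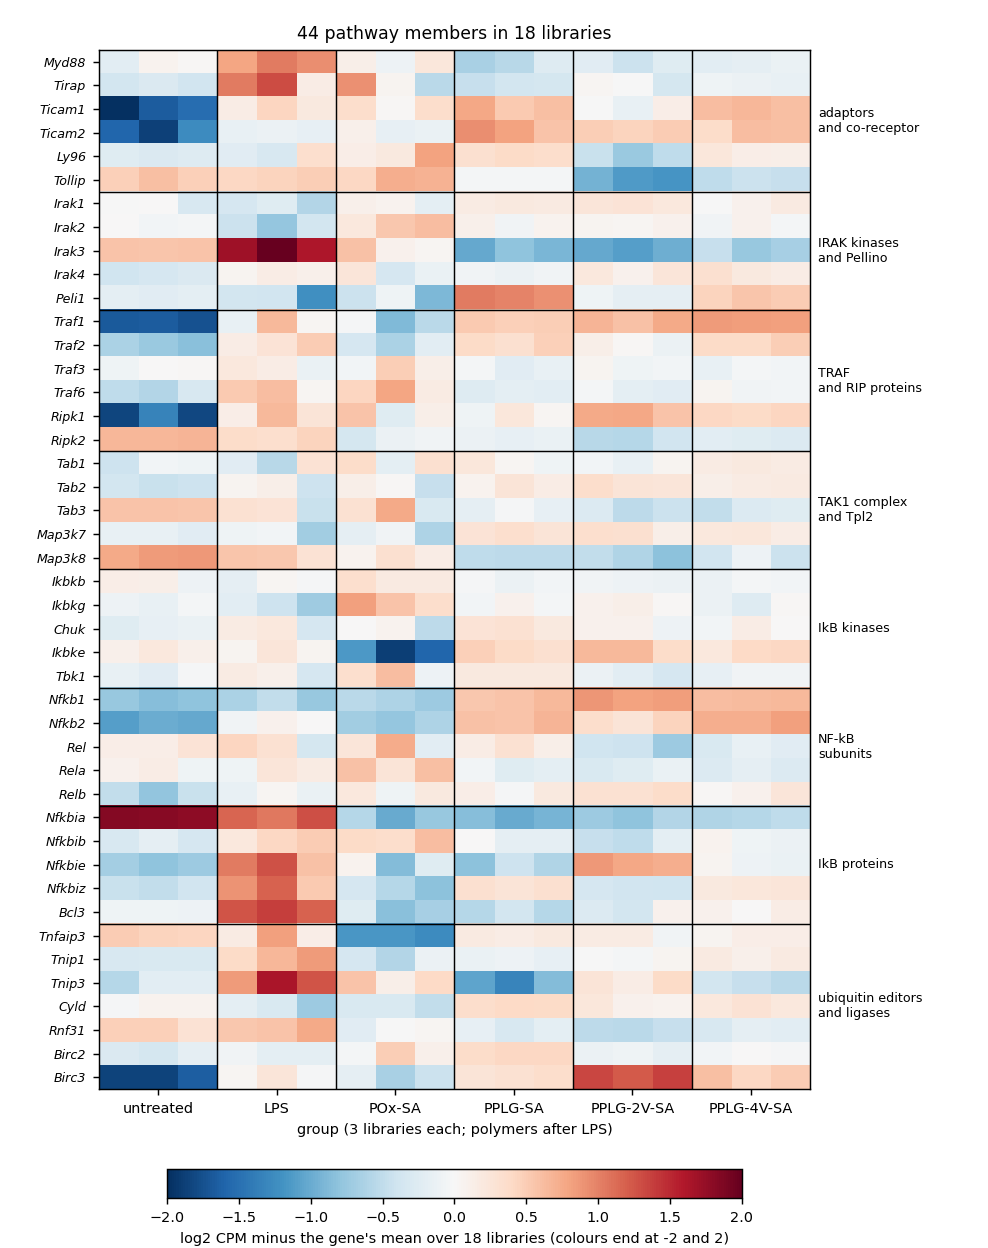
Each row is 1 of the 44 members, ordered by role, and each column 1 of the 18 libraries in 6 groups. Colour is log2 CPM minus that gene's mean over the 18 libraries, red above and blue below. Irak3, Bcl3 and Tnip3 are reddest with LPS, Nfkbia is reddest in the untreated libraries, Ikbke and Tnfaip3 are bluest with POx-SA, and Nfkb1 is red with the 3 PPLG polymers and blue in the other groups.

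LPS against untreated cells asked what the stimulus alone did to its own signalling chain. Adaptors of the receptor, most IkB proteins and members of the TRAF, RIP and ubiquitin groups were higher with LPS, most of all Ripk1, Ticam1, Traf1, Birc3 and Nfkbie, by 3.32- to 4.03-fold. The catalytic IkB kinases Ikbkb and Chuk, the TAK1 gene Map3k7 and 3 of the 5 NF-kB subunit genes were not called. Nfkbia, the classical feedback inhibitor, was lower with LPS. In RNA of bulk cultures a change in the share of cells that express a gene and a change of RNA per cell cannot be told apart. In all 20 members rose (30.8% of all genes did) and 7 fell (28.4% of all genes did), with a median log2 fold change of 0.21 over the members and 0.02 over all genes. The counts by role below rest on 5 to 7 genes each and stand beside these same shares of all genes. On plain library totals the split was 29 and 1 and on log2(FPKM + 1) 30 and 2, with the median log2 fold change of all genes at 0.29 and 0.22.

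Of the adaptors and the co-receptor 4 of 6 rose. Ticam1, which encodes the adaptor TRIF of the interferon-inducing arm, stood at 10.6, 13.9 and 15.3 CPM untreated and 48.9, 59.6 and 50.4 CPM with LPS (log2 fold change 1.99 ± 0.14, adjusted p = 4.15e-09). Every LPS library lay above every untreated one. Ticam2, whose product TRAM bridges TRIF to TLR4, rose by 1.39 ± 0.15 and Tirap, whose product bridges MyD88 to the receptor, by 1.25 ± 0.29. Myd88, the adaptor shared by most TLRs, stood at 28.4, 34.6 and 33.2 CPM untreated and 56.7, 67.1 and 62.4 CPM with LPS (log2 fold change 0.95 ± 0.12, adjusted p = 3.27e-06), again without overlap. Ly96, the gene of MD-2, was at 0.22 (95% interval -0.19 to 0.62) and Tollip, an IRAK-binding inhibitor, at -0.06 (95% interval -0.26 to 0.13), neither called.

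Among the IRAK kinases Irak3, which encodes the inhibitory IRAK-M, rose from 104, 103 and 105 CPM to 228, 283 and 216 CPM (log2 fold change 1.22 ± 0.14, adjusted p = 7.39e-07), and the groups did not overlap. The essential kinase gene Irak4 rose by 0.44 ± 0.13. Irak2 fell by 0.47 ± 0.11, a call not made on plain totals. Irak1 stood at -0.28 ± 0.11, a call that 10 of 17 alternatives did not make and that ended without LPS replicate 1 (-0.30, adjusted p = 0.0612), LPS replicate 3 (-0.18, adjusted p = 0.178), untreated replicate 1 (-0.24, adjusted p = 0.128) or untreated replicate 2 (-0.22, adjusted p = 0.150). On log2(FPKM + 1) its value turned to 0.07. Of the TRAF and RIP proteins 4 of 6 rose and 1 fell. Ripk1, a kinase used by TRIF and TNF receptors, stood at 7.26, 10.3 and 7.37 CPM untreated and 28.5, 40.9 and 31.1 CPM with LPS (log2 fold change 2.01 ± 0.20, adjusted p = 1.79e-07). Its locus overlaps that of Serpinb6a in the RefSeq annotation, and without stated strand handling reads of both cannot be told apart. Traf1, a TRAF protein known as an NF-kB target, stood at 16.5, 16.6 and 15.8 CPM untreated and 47.9, 83.1 and 54.3 CPM with LPS (log2 fold change 1.92 ± 0.20, adjusted p = 3.22e-07), with no overlap. Traf2, which acts below TNF receptors, rose by 1.05 ± 0.12 and the ligase gene Traf6 by 0.89 ± 0.15, while Traf3 was not called at 0.10 (95% interval -0.16 to 0.35). Ripk2, the kinase of NOD receptors, stood at -0.28 ± 0.09, a call that 4 of 17 alternatives did not make and whose value turned to 0.07 on log2(FPKM + 1).

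Few genes of the TAK1 complex and of the IkB kinases were called, where 59.2% of all genes were. Of the TAK1 complex and Tpl2 1 of 5 rose and 1 fell, both with calls that depended on single libraries. The riser was Tab2, a TAK1-binding protein, at 0.35 ± 0.14, which ended without LPS replicate 1 (0.30, adjusted p = 0.117), LPS replicate 2 (0.26, adjusted p = 0.157), untreated replicate 1 (0.37, adjusted p = 0.0633), untreated replicate 2 (0.33, adjusted p = 0.0963) or untreated replicate 3 (0.35, adjusted p = 0.0787). The member that fell was Map3k8, the gene of Tpl2, at -0.35 ± 0.11, which 7 of 17 alternatives did not call and which ended without LPS replicate 3 (-0.26, adjusted p = 0.0707). Of the IkB kinases 1 of 5 fell, this being the scaffold gene Ikbkg at -0.33 ± 0.13, whose call 10 of 17 alternatives did not make and which shares its locus with G6pdx and Fam3a. It ended without LPS replicate 2 (-0.33, adjusted p = 0.0667), LPS replicate 3 (-0.20, adjusted p = 0.166), untreated replicate 1 (-0.33, adjusted p = 0.0671) or untreated replicate 3 (-0.30, adjusted p = 0.0969). Ikbkb was at -0.11 (95% interval -0.29 to 0.08), Chuk at 0.20 (95% interval -0.10 to 0.51) and the TRIF-arm kinase genes Ikbke and Tbk1 at -0.02 (95% interval -0.31 to 0.27) and 0.13 (95% interval -0.18 to 0.44).

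Of the NF-kB subunits 2 of 5 rose. Nfkb2, the precursor gene of the alternative pathway, rose from 48.2 ± 1.66 to 99.9 ± 5.50 CPM (SD, n = 3; log2 fold change 1.05 ± 0.08, adjusted p = 1.89e-08). Its partner gene Relb rose by 0.49 ± 0.12. Nfkb1, the precursor gene of the classical pathway, stood at 122, 114 and 119 CPM untreated and 134, 147 and 123 CPM with LPS, which was not called (0.18, 95% interval 0.00 to 0.36). The libraries of Nfkb1 did not overlap, but their gap was small. Rela, the main activating subunit, stood at 48.1, 50.2 and 42.6 CPM and 42.9, 53.5 and 51.0 CPM, overlapping and not called (0.07, 95% interval -0.17 to 0.30), and Rel was at -0.02 (95% interval -0.43 to 0.40).

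Of the IkB proteins 4 of 5 rose and 1 fell. Nfkbia stood at 1694, 1668 and 1646 CPM untreated and 1060.1, 982 and 1155 CPM with LPS (log2 fold change -0.65 ± 0.11, adjusted p = 5.49e-05), so that each LPS library lay below each untreated one, and this call held under all alternatives. Nfkbie stood at 5.76, 5.26 and 5.59 CPM untreated and 19.0, 22.2 and 13.9 CPM with LPS (log2 fold change 1.73 ± 0.21, adjusted p = 2.18e-06). Nfkbiz, a nuclear IkB protein needed for a class of secondary response genes, stood at 168, 162 and 175 CPM untreated and 427, 516 and 328 CPM with LPS (log2 fold change 1.33 ± 0.14, adjusted p = 2.74e-07). Both rose without overlap of the groups. Bcl3, a nuclear IkB protein that acts with homodimers of NF-kB, stood at 40.7, 40.5 and 40.2 CPM untreated and 103, 112 and 97.2 CPM with LPS (log2 fold change 1.36 ± 0.14, adjusted p = 2.79e-07), and Nfkbib rose by 0.66 ± 0.11.

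Of the ubiquitin editors and ligases 3 of 7 rose and 1 fell. Birc3, the ligase cIAP2, stood at 19.3, 19.3 and 22.2 CPM untreated and 71.2, 82.6 and 68.8 CPM with LPS (log2 fold change 1.87 ± 0.12, adjusted p = 1.63e-09), while the related Birc2 was not called at 0.12 (95% interval -0.11 to 0.35). Tnip3, whose product binds A20, stood at 20.2, 25.7 and 25.9 CPM untreated and 53.8, 92.3 and 71.8 CPM with LPS (log2 fold change 1.60 ± 0.18, adjusted p = 6.44e-07), and Tnip1, another A20-binding protein, rose by 0.96 ± 0.12. Tnfaip3, the gene of A20 itself, stood at 98.4, 94.5 and 93.8 CPM untreated and 78.0, 123 and 76.3 CPM with LPS and was not called (-0.05, 95% interval -0.34 to 0.24). LPS replicate 2 lay above the untreated range and the other 2 LPS libraries below it. The deubiquitinase gene Cyld stood at -0.43 ± 0.11, a call that 4 of 17 alternatives did not make, and Rnf31, the catalytic subunit of the linear ubiquitin ligase, at 0.21 (95% interval 0.00 to 0.41).

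The 4 comparisons of a polymer after LPS with LPS alone asked what each polymer did to the same chain. They share the 3 LPS libraries. With each polymer the inhibitory kinase gene Irak3, the IkB genes Nfkbia, Bcl3 and Nfkbiz, the genes Tnip1 and Tnip3 of A20-binding proteins and the adaptor gene Myd88 were lower than with LPS. The kinase genes Ripk2 and Map3k8 and the ubiquitin ligase gene Rnf31 were also called lower with each polymer. For Map3k8 with POx-SA most alternatives did not make the call. Irak1, Irak2 and Ikbkg were called higher with each polymer. Most alternatives did not make the call for Ikbkg with PPLG-4V-SA, and some did not for Irak1 with POx-SA. How many of all genes were called alike with all 4 polymers was not counted, so this agreement is not by itself a result about the members. Inhibitors of signalling did not all fall. Cyld rose with the 3 PPLG polymers, Tollip and Nfkbib were not called with POx-SA, and Tnfaip3 was not called with PPLG-SA or PPLG-4V-SA. With the 3 PPLG polymers Nfkb1 was 2.31- to 2.77-fold higher and Nfkb2 was also higher, whereas with POx-SA Nfkb1 was not called and Nfkb2 was lower. With POx-SA the kinase gene Ikbke was 3.09-fold lower and the ubiquitin editor gene Tnfaip3 3.04-fold lower, and with each PPLG polymer both lay above their POx-SA level.

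With POx-SA 7 members rose (22.2% of all genes did) and 17 fell (24.1%). With PPLG-SA 11 rose (29.2%) and 16 fell (30.7%), with PPLG-2V-SA 14 rose (30.8%) and 19 fell (30.2%), and with PPLG-4V-SA 12 rose (28.0%) and 16 fell (27.1%). The members' median log2 fold changes were -0.02, 0.01, -0.21 and 0.00 in that order, beside medians between 0.00 and 0.03 over all genes. On plain library totals the splits into higher and lower were 3 and 17 with POx-SA, 16 and 13 with PPLG-2V-SA and 16 and 13 with PPLG-4V-SA, and on log2(FPKM + 1) they were 2 and 18 with POx-SA, 14 and 13 with PPLG-2V-SA and 15 and 13 with PPLG-4V-SA. Irak4, Traf3, Ripk1, Tab1, Tab3, Chuk and Tbk1 were called with none.

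**Figure D3:**
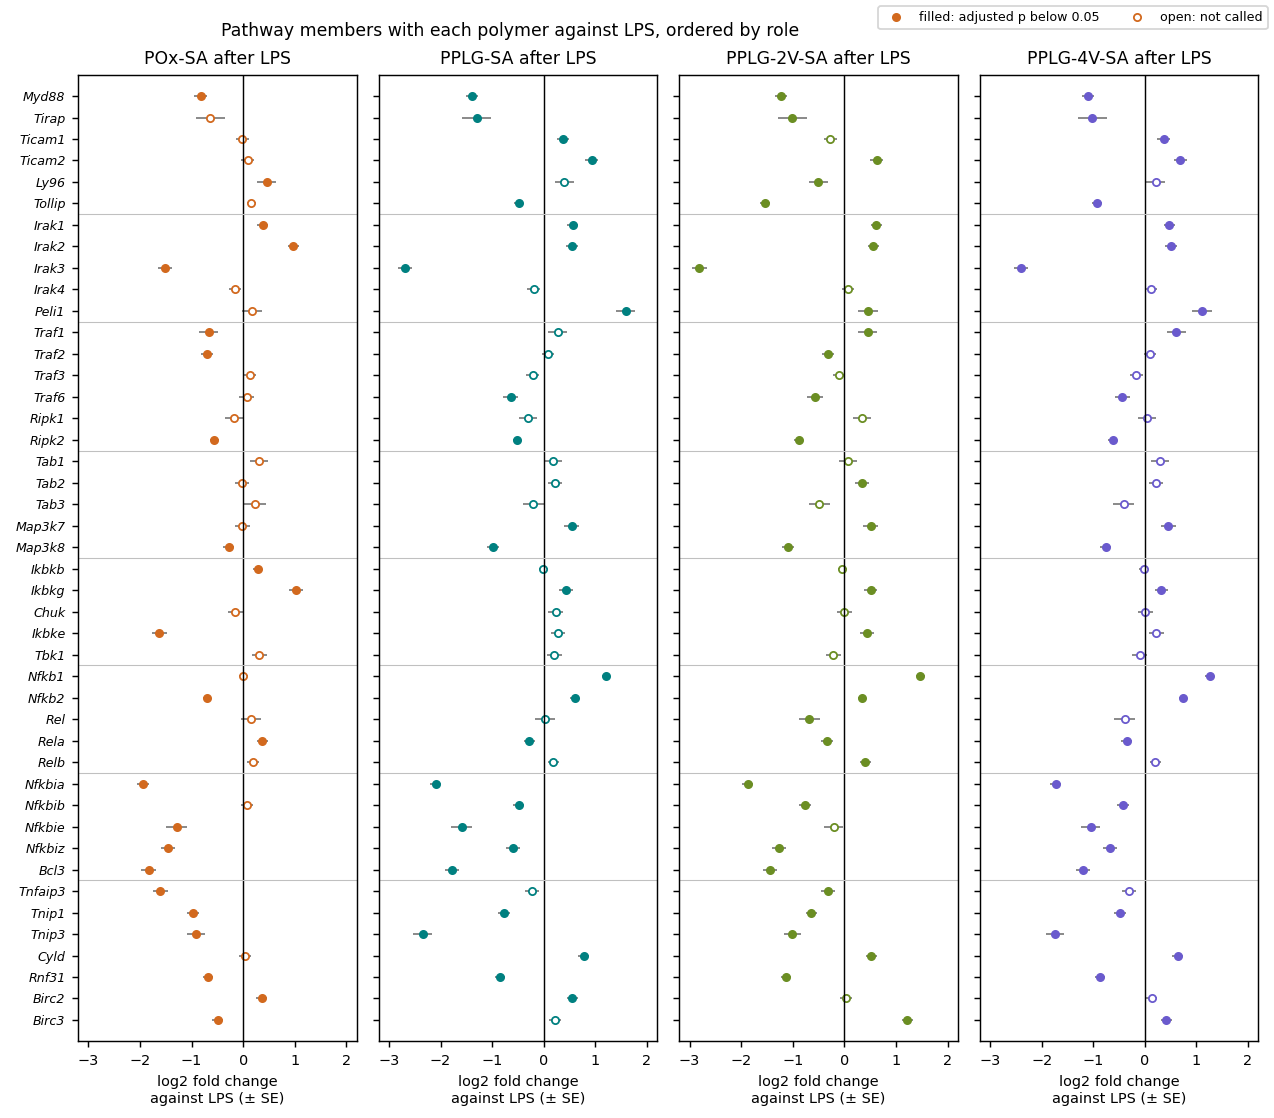
Log2 fold change against LPS (x axis) of each of the 44 members (y axis, ordered by role from adaptors at the top to ubiquitin ligases at the bottom) with each of the 4 polymers. Points are estimates over 3 libraries a group, bars are SE, and filled points had an adjusted p below 0.05. Irak3 lies farthest left with each PPLG polymer (-2.69, -2.81 and -2.40) and Nfkbia with POx-SA (-1.94), Ikbke and Tnfaip3 lie far left with POx-SA alone, and Nfkb1 lies right of 1 with the 3 PPLG polymers and at 0 with POx-SA.

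The IkB proteins moved in 1 direction. Of the 5, 4 fell with POx-SA, 5 with PPLG-SA, 4 with PPLG-2V-SA and 5 with PPLG-4V-SA, and the other values, those of Nfkbib with POx-SA and of Nfkbie with PPLG-2V-SA, were not called. In these comparisons 24.1% to 30.7% of all genes fell. Nfkbia stood at 1060.1, 982 and 1155 CPM with LPS alone, 318, 236 and 279 CPM with POx-SA, 262, 236 and 248 CPM with PPLG-SA, 286, 272 and 316 CPM with PPLG-2V-SA and 313, 319 and 333 CPM with PPLG-4V-SA. All 12 polymer libraries lay below the lowest LPS library, and the 4 polymer groups lay close to each other. The log2 fold changes of Nfkbia were -1.94 ± 0.11 with POx-SA, -2.10 ± 0.11 with PPLG-SA, -1.87 ± 0.11 with PPLG-2V-SA and -1.73 ± 0.11 with PPLG-4V-SA (adjusted p = 7.11e-10, 7.46e-11, 1.79e-10 and 8.35e-10). Nfkbia was already lower with LPS than untreated, and the polymer groups stood 5.19- to 6.71-fold below the untreated libraries.

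Bcl3 stood at 103, 112 and 97.2 CPM with LPS alone, 36.5, 24.1 and 27.1 CPM with POx-SA, 29.0, 33.4 and 29.0 CPM with PPLG-SA, 35.7, 33.2 and 45.9 CPM with PPLG-2V-SA and 45.5, 43.4 and 47.5 CPM with PPLG-4V-SA. All 12 polymer libraries lay below all 3 LPS libraries, with log2 fold changes of -1.83 ± 0.14 with POx-SA, -1.77 ± 0.14 with PPLG-SA, -1.44 ± 0.14 with PPLG-2V-SA and -1.20 ± 0.14 with PPLG-4V-SA (adjusted p = 1.81e-08, 1.16e-08, 8.43e-08 and 1.15e-06). Nfkbiz stood at 427, 516 and 328 CPM with LPS alone, 181, 155 and 129 CPM with POx-SA, 284, 273 and 287 CPM with PPLG-SA, 181, 175 and 173 CPM with PPLG-2V-SA and 260.3, 267 and 270.1 CPM with PPLG-4V-SA. It was lower with every polymer and lowest with POx-SA and PPLG-2V-SA (log2 fold changes -1.45 ± 0.14 with POx-SA, -0.59 ± 0.13 with PPLG-SA, -1.26 ± 0.14 with PPLG-2V-SA and -0.67 ± 0.13 with PPLG-4V-SA; adjusted p = 1.93e-07, 0.00107, 3.64e-07 and 3.87e-04).

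Nfkbie stood at 19.0, 22.2 and 13.9 CPM with LPS alone, 9.65, 5.06 and 7.76 CPM with POx-SA, 5.24, 6.92 and 6.08 CPM with PPLG-SA, 16.8, 15.8 and 15.2 CPM with PPLG-2V-SA and 9.55, 8.59 and 8.41 CPM with PPLG-4V-SA. It fell with POx-SA (-1.29 ± 0.20, adjusted p = 4.34e-05), PPLG-SA (-1.59 ± 0.20, adjusted p = 3.07e-06) and PPLG-4V-SA (-1.05 ± 0.19, adjusted p = 1.78e-04), while its PPLG-2V-SA libraries overlapped LPS and the difference was not called (-0.21, 95% interval -0.60 to 0.19). Nfkbib was not called with POx-SA (0.08, 95% interval -0.16 to 0.31) and fell with PPLG-SA by 0.49 ± 0.11 and with PPLG-2V-SA by 0.76 ± 0.11. With PPLG-4V-SA it stood at -0.42 ± 0.11, a call not made on plain totals or on FPKM.

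**Figure D4:**
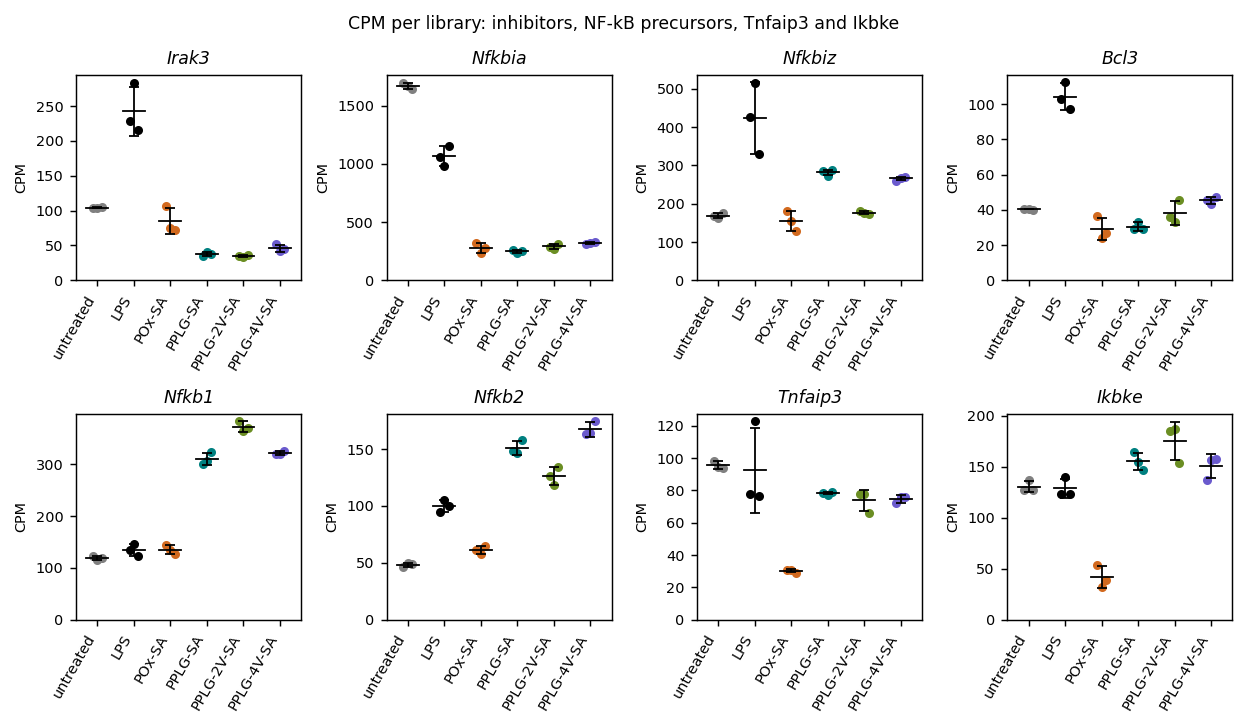
CPM (y axis, from 0) of 8 members in the 3 libraries of each of 6 groups (x axis, polymers given after LPS). Points are libraries, long lines means and bars SD. Irak3, Nfkbia and Bcl3 are lower with each polymer than with LPS, Nfkb1 lies between 301 and 384 CPM with PPLG polymers and between 114 and 147 CPM elsewhere, and Tnfaip3 and Ikbke are lowest with POx-SA.

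Of the NF-kB subunit genes, Nfkb1 and Nfkb2 had different values with POx-SA and with the PPLG polymers. Nfkb1 stood at 134, 147 and 123 CPM with LPS alone, 143, 135 and 126 CPM with POx-SA, 301, 307 and 324 CPM with PPLG-SA, 384, 364 and 370.0 CPM with PPLG-2V-SA and 319, 321 and 326 CPM with PPLG-4V-SA. The 9 PPLG libraries lay above every other library of the study, and the POx-SA libraries lay among those of LPS. Nfkb1 rose by 1.21 ± 0.09 with PPLG-SA, 1.47 ± 0.09 with PPLG-2V-SA and 1.26 ± 0.09 with PPLG-4V-SA (adjusted p = 3.08e-09, 1.65e-10 and 1.96e-09) and was at 0.00 (95% interval -0.18 to 0.18) with POx-SA. Nfkb2 went from 99.9 ± 5.50 CPM with LPS (SD, n = 3) to 61.3 ± 3.34 CPM with POx-SA, 151 ± 6.31 CPM with PPLG-SA, 127 ± 8.05 CPM with PPLG-2V-SA and 167 ± 6.36 CPM with PPLG-4V-SA. It fell with POx-SA (-0.70 ± 0.08, adjusted p = 2.75e-06) and rose with the PPLG polymers by 0.60 ± 0.08 with PPLG-SA, 0.34 ± 0.08 with PPLG-2V-SA and 0.74 ± 0.08 with PPLG-4V-SA (adjusted p = 8.47e-06, 0.00161 and 7.98e-07).

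Rela stood at 42.9, 53.5 and 51.0 CPM with LPS alone, 68.2, 54.2 and 68.6 CPM with POx-SA, 43.9, 38.3 and 39.4 CPM with PPLG-SA, 36.7, 38.6 and 41.2 CPM with PPLG-2V-SA and 37.5, 40.3 and 37.7 CPM with PPLG-4V-SA. Its differences from LPS were small, at 0.37 ± 0.11 with POx-SA, -0.28 ± 0.11 with PPLG-SA, -0.34 ± 0.11 with PPLG-2V-SA and -0.35 ± 0.11 with PPLG-4V-SA, and although each was called, all 4 calls ended on plain library totals and on log2(FPKM + 1). The call with POx-SA also ended without LPS replicate 1 (0.28, adjusted p = 0.0649) and with the replicate number as a block in a fit of these 6 libraries (0.38, adjusted p = 0.0615). The call with PPLG-SA ended without LPS replicate 2 (-0.21, adjusted p = 0.152), LPS replicate 3 (-0.27, adjusted p = 0.0743), PPLG-SA replicate 2 (-0.24, adjusted p = 0.134) or PPLG-SA replicate 3 (-0.25, adjusted p = 0.109). That with PPLG-2V-SA ended without LPS replicate 2 (-0.27, adjusted p = 0.0652) or PPLG-2V-SA replicate 1 (-0.30, adjusted p = 0.0601) and that with PPLG-4V-SA without LPS replicate 2 (-0.28, adjusted p = 0.0613). Rel was called with PPLG-2V-SA only (-0.68 ± 0.20), a call not made on plain totals or on FPKM, and Relb with PPLG-2V-SA only (0.41 ± 0.11), a call not made on FPKM.

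The level of Nfkbia RNA relative to that of the subunits it binds was compared within libraries, where scaling cancels. This ratio was chosen after the values were seen. On the deposited FPKM values, which account for gene length, Nfkbia over Nfkb1 was 37.2 ± 0.998 untreated, 21.4 ± 3.75 with LPS and 5.52 ± 0.773 with POx-SA (SD, n = 3). It was 2.25 ± 0.161 with PPLG-SA, 2.19 ± 0.186 with PPLG-2V-SA and 2.80 ± 0.0595 with PPLG-4V-SA. The ranges of untreated, LPS and POx-SA libraries did not overlap each other or those of the PPLG libraries. Nfkbia over Rela was 42.5 ± 7.43 with LPS, 8.76 ± 0.519 with POx-SA and 13.3 to 16.9 in the means of the PPLG groups. Nfkb1 over Rela was 2.00 ± 0.303 with LPS, 1.61 ± 0.312 with POx-SA and 5.96 to 6.66 in the PPLG means.

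Of the adaptors and the co-receptor 1 of 6 rose and 1 fell with POx-SA, 2 of 6 rose and 3 fell with PPLG-SA, 1 of 6 rose and 4 fell with PPLG-2V-SA and 2 of 6 rose and 3 fell with PPLG-4V-SA. Beside these few genes, 22.2% to 30.8% of all genes rose and 24.1% to 30.7% fell. Myd88 and Tirap of the MyD88 arm were lower with PPLG polymers, while Ticam2 of the TRIF arm was higher. Myd88 stood at 56.7, 67.1 and 62.4 CPM with LPS alone, 35.7, 30.7 and 38.4 CPM with POx-SA, 20.8, 22.3 and 27.5 CPM with PPLG-SA, 28.0, 24.2 and 27.6 CPM with PPLG-2V-SA and 28.3, 28.8 and 29.8 CPM with PPLG-4V-SA. No polymer library reached the LPS range, and the log2 fold changes were -0.83 ± 0.12 with POx-SA, -1.40 ± 0.12 with PPLG-SA, -1.22 ± 0.12 with PPLG-2V-SA and -1.10 ± 0.12 with PPLG-4V-SA (adjusted p = 2.19e-05, 3.53e-08, 1.15e-07 and 5.97e-07). Tirap fell by 1.30 ± 0.28 with PPLG-SA, 1.01 ± 0.28 with PPLG-2V-SA and 1.02 ± 0.28 with PPLG-4V-SA but varied between replicates with LPS (42.3, 50.8 and 22.7 CPM) and POx-SA (38.8, 21.5 and 14.2 CPM), where it was not called (-0.64, 95% interval -1.22 to -0.06).

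Ticam1 stood at 48.9, 59.6 and 50.4 CPM with LPS alone, 56.1, 44.9 and 56.1 CPM with POx-SA, 75.7, 63.3 and 66.8 CPM with PPLG-SA, 43.7, 39.8 and 48.3 CPM with PPLG-2V-SA and 68.0, 69.7 and 66.8 CPM with PPLG-4V-SA. With POx-SA and PPLG-2V-SA it was not called (-0.02, 95% interval -0.28 to 0.25 and -0.27, 95% interval -0.53 to 0.00). With PPLG-SA (0.37 ± 0.13) and PPLG-4V-SA (0.36 ± 0.12) it was called higher. The first call ended without LPS replicate 1 (0.32, adjusted p = 0.0654), LPS replicate 3 (0.32, adjusted p = 0.0537) or PPLG-SA replicate 1 (0.30, adjusted p = 0.0802), and the second without LPS replicate 1 (0.31, adjusted p = 0.0764), LPS replicate 3 (0.30, adjusted p = 0.0716) or PPLG-4V-SA replicate 2 (0.35, adjusted p = 0.0533). Ticam2 rose by 0.93 ± 0.13 with PPLG-SA, 0.63 ± 0.13 with PPLG-2V-SA and 0.68 ± 0.13 with PPLG-4V-SA and was at 0.09 (95% interval -0.19 to 0.36) with POx-SA.

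Tollip stood at 154, 157 and 162 CPM with LPS alone, 153, 189 and 186 CPM with POx-SA, 112, 112 and 112 CPM with PPLG-SA, 59.7, 52.5 and 50.9 CPM with PPLG-2V-SA and 80.4, 85.5 and 83.5 CPM with PPLG-4V-SA. Each of the 9 PPLG libraries lay below each LPS library, most with PPLG-2V-SA (log2 fold changes -0.49 ± 0.09 with PPLG-SA, -1.53 ± 0.09 with PPLG-2V-SA and -0.92 ± 0.09 with PPLG-4V-SA; adjusted p = 2.22e-04, 3.40e-10 and 2.72e-07), and with POx-SA it was not called (0.16, 95% interval -0.03 to 0.35). Ly96 was called higher with POx-SA (0.45 ± 0.18) and lower with PPLG-2V-SA (-0.51 ± 0.18), but 9 of 18 and 7 of 17 alternatives did not make these calls, and its group means of CPM were only 7.18 to 14.0. The first ended without LPS replicate 1 (0.37, adjusted p = 0.164), LPS replicate 2 (0.33, adjusted p = 0.192) or POx-SA replicate 3 (0.23, adjusted p = 0.288) and under the replicate block in the fit of the 6 libraries (0.46, adjusted p = 0.0558). The second ended without LPS replicate 3 (-0.30, adjusted p = 0.164) or PPLG-2V-SA replicate 2 (-0.42, adjusted p = 0.0977).

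Among the IRAK kinases the inhibitory Irak3 was lower, and Irak1 and Irak2, which carry the signal, were higher. Irak3 stood at 228, 283 and 216 CPM with LPS alone, 106, 74.8 and 72.7 CPM with POx-SA, 34.7, 40.5 and 37.6 CPM with PPLG-SA, 34.8, 32.9 and 35.7 CPM with PPLG-2V-SA and 51.6, 41.9 and 44.5 CPM with PPLG-4V-SA. The LPS libraries were highest and did not overlap any polymer group, and with PPLG polymers Irak3 was also below the untreated 103 to 105 CPM. Its log2 fold changes were -1.52 ± 0.14 with POx-SA, -2.69 ± 0.14 with PPLG-SA, -2.81 ± 0.14 with PPLG-2V-SA and -2.40 ± 0.14 with PPLG-4V-SA (adjusted p = 1.15e-07, 7.72e-11, 2.65e-11 and 2.97e-10). Irak2, a kinase that sustains late signalling, rose by 0.97 ± 0.11 with POx-SA, 0.54 ± 0.11 with PPLG-SA, 0.56 ± 0.11 with PPLG-2V-SA and 0.50 ± 0.11 with PPLG-4V-SA. Irak1 rose by 0.56 ± 0.11 with PPLG-SA, 0.62 ± 0.11 with PPLG-2V-SA and 0.47 ± 0.11 with PPLG-4V-SA, and its value of 0.38 ± 0.11 with POx-SA was a call that 4 of 18 alternatives did not make. Irak4 was not called with any polymer. Peli1, a ubiquitin ligase of the IRAK and TRIF branches, went from 78.8 ± 23.7 CPM with LPS (SD, n = 3) to 237 ± 9.77 CPM with PPLG-SA (1.59 ± 0.19, adjusted p = 1.75e-06) and 169.9 ± 6.50 CPM with PPLG-4V-SA (1.11 ± 0.19, adjusted p = 8.25e-05). With POx-SA it was at 0.17 (95% interval -0.22 to 0.56). With PPLG-2V-SA it stood at 0.46 ± 0.19, a call that 9 of 17 alternatives did not make and that ended without LPS replicate 3 (0.20, adjusted p = 0.243), PPLG-2V-SA replicate 1 (0.43, adjusted p = 0.0968), PPLG-2V-SA replicate 2 (0.48, adjusted p = 0.0654) or PPLG-2V-SA replicate 3 (0.48, adjusted p = 0.0649).

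Of the TRAF and RIP proteins 3 of 6 fell with POx-SA, 2 of 6 fell with PPLG-SA, 1 of 6 rose and 3 fell with PPLG-2V-SA and 1 of 6 rose and 2 fell with PPLG-4V-SA. Beside these few genes, 22.2% to 30.8% of all genes rose and 24.1% to 30.7% fell. Ripk2 fell with each polymer, with log2 fold changes of -0.56 ± 0.09 with POx-SA, -0.52 ± 0.09 with PPLG-SA, -0.88 ± 0.09 with PPLG-2V-SA and -0.63 ± 0.09 with PPLG-4V-SA. Traf2 fell with POx-SA (-0.70 ± 0.12, adjusted p = 1.06e-04) and was not called with PPLG-SA (0.08, 95% interval -0.16 to 0.32) or PPLG-4V-SA (0.11, 95% interval -0.13 to 0.35). Its value of -0.31 ± 0.11 with PPLG-2V-SA was a call that ended without LPS replicate 3 (-0.23, adjusted p = 0.0975), PPLG-2V-SA replicate 2 (-0.31, adjusted p = 0.0592) or PPLG-2V-SA replicate 3 (-0.25, adjusted p = 0.111). Traf1 stood at 47.9, 83.1 and 54.3 CPM with LPS alone, 51.8, 28.5 and 36.2 CPM with POx-SA, 75.5, 73.6 and 74.0 CPM with PPLG-SA, 84.4, 79.3 and 89.5 CPM with PPLG-2V-SA and 95.1, 93.9 and 93.4 CPM with PPLG-4V-SA. Its LPS replicates were spread, with replicate 2 far above the others. Traf1 was at -0.67 ± 0.18 with POx-SA, a call that ended without LPS replicate 2 (-0.40, adjusted p = 0.0602) and under the replicate block in the fit of these 6 libraries (-0.66, adjusted p = 0.0856). With PPLG-SA it was not called (0.27, 95% interval -0.11 to 0.65). Its value of 0.45 ± 0.18 with PPLG-2V-SA was a call that ended without LPS replicate 1 (0.30, adjusted p = 0.184), LPS replicate 3 (0.34, adjusted p = 0.140), PPLG-2V-SA replicate 1 (0.46, adjusted p = 0.0732) or PPLG-2V-SA replicate 3 (0.41, adjusted p = 0.101), and the call with PPLG-4V-SA, at 0.61 ± 0.18, ended without LPS replicate 1 (0.46, adjusted p = 0.0524). Traf6 fell with PPLG-SA (-0.64 ± 0.15, adjusted p = 0.00137) and was at 0.07 (95% interval -0.24 to 0.38) with POx-SA. Its value of -0.57 ± 0.15 with PPLG-2V-SA was a call not made on plain totals or on FPKM, and its value of -0.44 ± 0.15 with PPLG-4V-SA a call that also ended without LPS replicate 1 (-0.38, adjusted p = 0.0700), LPS replicate 2 (-0.32, adjusted p = 0.10), PPLG-4V-SA replicate 2 (-0.41, adjusted p = 0.0613) or PPLG-4V-SA replicate 3 (-0.42, adjusted p = 0.0572). Ripk1 stood at 28.5, 40.9 and 31.1 CPM with LPS alone, 38.5, 22.1 and 28.3 CPM with POx-SA, 24.4, 30.3 and 26.9 CPM with PPLG-SA, 44.1, 44.5 and 38.4 CPM with PPLG-2V-SA and 34.7, 34.0 and 35.0 CPM with PPLG-4V-SA and was called with no polymer.

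In the TAK1 complex Map3k7 rose with PPLG-SA and PPLG-2V-SA by 0.54 ± 0.15 and 0.51 ± 0.15. Its value of 0.45 ± 0.15 with PPLG-4V-SA was a call that ended without LPS replicate 3 (0.25, adjusted p = 0.0943), and with POx-SA it was at -0.02 (95% interval -0.33 to 0.29). Map3k8, whose product Tpl2 activates the ERK pathway and is held by the Nfkb1 precursor protein, fell with the PPLG polymers by 0.99 ± 0.12 with PPLG-SA, 1.10 ± 0.12 with PPLG-2V-SA and 0.76 ± 0.11 with PPLG-4V-SA. Its value with POx-SA, -0.28 ± 0.11, was a call that 10 of 18 alternatives did not make and that ended without LPS replicate 1 (-0.24, adjusted p = 0.151), LPS replicate 2 (-0.25, adjusted p = 0.134), POx-SA replicate 1 (-0.20, adjusted p = 0.200) or POx-SA replicate 3 (-0.25, adjusted p = 0.131) and under the replicate block (-0.27, adjusted p = 0.106). Tab1 and Tab3 were called with no polymer and Tab2 with PPLG-2V-SA only (0.35 ± 0.14), a call that 9 of 17 alternatives did not make and that ended without LPS replicate 3 (0.17, adjusted p = 0.236), PPLG-2V-SA replicate 1 (0.32, adjusted p = 0.0987), PPLG-2V-SA replicate 2 (0.36, adjusted p = 0.0605) or PPLG-2V-SA replicate 3 (0.37, adjusted p = 0.052).

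Among the IkB kinases Ikbke gave the largest value. Ikbke stood at 124, 139.6 and 123 CPM with LPS alone, 53.5, 32.3 and 39.3 CPM with POx-SA, 164, 154 and 147 CPM with PPLG-SA, 185, 187 and 154 CPM with PPLG-2V-SA and 137, 156 and 158 CPM with PPLG-4V-SA. Its POx-SA libraries lay below every other library of the study, with a log2 fold change of -1.63 ± 0.14, adjusted p = 8.43e-08. With PPLG-2V-SA it rose by 0.44 ± 0.14, and with PPLG-SA and PPLG-4V-SA it was not called (0.27, 95% interval -0.02 to 0.56 and 0.22, 95% interval -0.06 to 0.51). Ikbkg, the scaffold of the complex, rose with POx-SA from 49.6 ± 8.48 to 101 ± 16.4 CPM (SD, n = 3; log2 fold change 1.02 ± 0.13, adjusted p = 4.94e-06) and by 0.43 ± 0.13 and 0.51 ± 0.13 with PPLG-SA and PPLG-2V-SA, with the limit that its locus overlaps those of G6pdx and Fam3a. Its value of 0.32 ± 0.13 with PPLG-4V-SA was a call that 10 of 17 alternatives did not make and that ended without LPS replicate 2 (0.33, adjusted p = 0.0677), LPS replicate 3 (0.17, adjusted p = 0.237), PPLG-4V-SA replicate 1 (0.32, adjusted p = 0.0776) or PPLG-4V-SA replicate 3 (0.25, adjusted p = 0.153). Chuk and Tbk1 were called with no polymer. Ikbkb stood at 0.28 ± 0.09 with POx-SA, a call that ended without LPS replicate 1 (0.22, adjusted p = 0.0768) and under the replicate block (0.29, adjusted p = 0.077). It was not called with the PPLG polymers, where it lay between -0.04 and -0.01.

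Of the ubiquitin editors and ligases 1 of 7 rose and 5 fell with POx-SA, 2 of 7 rose and 3 fell with PPLG-SA, 2 of 7 rose and 4 fell with PPLG-2V-SA and 2 of 7 rose and 3 fell with PPLG-4V-SA. Beside these few genes, 22.2% to 30.8% of all genes rose and 24.1% to 30.7% fell. Tnfaip3 stood at 78.0, 123 and 76.3 CPM with LPS alone, 31.0, 30.9 and 29.0 CPM with POx-SA, 78.6, 77.4 and 79.2 CPM with PPLG-SA, 77.6, 77.9 and 66.2 CPM with PPLG-2V-SA and 72.2, 76.0 and 75.9 CPM with PPLG-4V-SA. The POx-SA libraries lay below every other library of the study and close together, with a log2 fold change of -1.61 ± 0.14, adjusted p = 8.55e-08. With PPLG-SA and PPLG-4V-SA it was not called (-0.24, 95% interval -0.52 to 0.05 and -0.31, 95% interval -0.59 to -0.02). With PPLG-2V-SA it stood at -0.32 ± 0.13, a call that 10 of 17 alternatives did not make. That call ended without LPS replicate 2 (-0.06, adjusted p = 0.580), PPLG-2V-SA replicate 1 (-0.35, adjusted p = 0.0661), PPLG-2V-SA replicate 2 (-0.36, adjusted p = 0.0637) or PPLG-2V-SA replicate 3 (-0.24, adjusted p = 0.179).

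Tnip3 stood at 53.8, 92.3 and 71.8 CPM with LPS alone, 44.2, 32.4 and 39.3 CPM with POx-SA, 14.5, 12.0 and 16.3 CPM with PPLG-SA, 35.9, 33.1 and 39.2 CPM with PPLG-2V-SA and 23.1, 21.7 and 20.6 CPM with PPLG-4V-SA. It fell with each polymer, most with PPLG-SA, whose libraries also lay below the untreated 20.2 to 25.9 CPM (log2 fold changes against LPS -0.91 ± 0.17 with POx-SA, -2.35 ± 0.18 with PPLG-SA, -1.01 ± 0.17 with PPLG-2V-SA and -1.74 ± 0.17 with PPLG-4V-SA; adjusted p = 2.70e-04, 7.57e-09, 5.40e-05 and 2.18e-07). Tnip1 changed by -0.98 ± 0.12 with POx-SA, -0.78 ± 0.11 with PPLG-SA, -0.64 ± 0.11 with PPLG-2V-SA and -0.49 ± 0.11 with PPLG-4V-SA and Rnf31 by -0.69 ± 0.10 with POx-SA, -0.85 ± 0.10 with PPLG-SA, -1.13 ± 0.10 with PPLG-2V-SA and -0.86 ± 0.10 with PPLG-4V-SA, all called lower. Birc3 stood at 71.2, 82.6 and 68.8 CPM with LPS alone, 61.4, 44.4 and 51.8 CPM with POx-SA, 83.3, 86.5 and 88.4 CPM with PPLG-SA, 175, 163 and 180.3 CPM with PPLG-2V-SA and 106, 92.4 and 99.2 CPM with PPLG-4V-SA. It rose with PPLG-2V-SA (1.22 ± 0.11, adjusted p = 4.77e-08) and PPLG-4V-SA (0.42 ± 0.11, adjusted p = 0.00387) and was not called with PPLG-SA (0.21, 95% interval -0.02 to 0.45). With POx-SA its libraries lay below those of LPS (-0.50 ± 0.11, adjusted p = 0.0014), a call not made in a fit of these 2 groups alone. Cyld, which removes the ubiquitin chains that these complexes build, rose by 0.77 ± 0.11 with PPLG-SA, 0.52 ± 0.11 with PPLG-2V-SA and 0.63 ± 0.11 with PPLG-4V-SA and was at 0.03 (95% interval -0.20 to 0.26) with POx-SA. Birc2 rose with PPLG-SA by 0.55 ± 0.11, and its value of 0.36 ± 0.11 with POx-SA was a call that ended without POx-SA replicate 2 (0.21, adjusted p = 0.0587) and under the replicate block (0.35, adjusted p = 0.0732).

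The 6 pairs of polymers were then compared with each other, all after LPS. The labels do not say that doses or times were matched, so each difference is one between groups as labelled. POx-SA differed from the PPLG polymers in many members, and PPLG-SA and PPLG-4V-SA differed in 2. This contrast depends on the estimate of the spread, which all groups shared although libraries within POx-SA differed more. In fits of only the 2 groups compared, 27.3% of all genes were called for PPLG-4V-SA against PPLG-SA, in place of 1.65%. For PPLG-SA against POx-SA the share was 48.1%, in place of 57.7%. Against POx-SA the subunit genes Nfkb1 and Nfkb2, the kinase gene Ikbke and Tnfaip3, Traf1 and Birc3 were higher with each PPLG polymer, and Irak3, Tollip and Rela were lower. Nfkbia was not called in any of the 6 pairs.

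Of the 44 members 14 rose and 12 fell, against 28.3% and 29.5% of all genes (57.7% in either direction), for PPLG-SA against POx-SA. For PPLG-2V-SA against POx-SA 15 rose and 17 fell, against 32.4% and 31.6% of all genes (64.0% in either direction), and for PPLG-4V-SA against POx-SA 15 rose and 13 fell, against 29.6% and 28.3% of all genes (57.9% in either direction). On plain library totals these splits were 19 and 10, 22 and 7 and 21 and 5, and on log2(FPKM + 1) 19 and 9, 21 and 7 and 22 and 5. The median of all genes moved to 0.19, 0.30 and 0.27 on plain totals.

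Ikbke gave the largest difference from POx-SA, with log2 fold changes of 1.90 ± 0.14 with PPLG-SA, 2.07 ± 0.14 with PPLG-2V-SA and 1.85 ± 0.14 with PPLG-4V-SA (adjusted p = 6.21e-09, 1.33e-09 and 7.78e-09). Nfkb1 differed by 1.20 ± 0.09 with PPLG-SA, 1.47 ± 0.09 with PPLG-2V-SA and 1.26 ± 0.09 with PPLG-4V-SA and Nfkb2 by 1.30 ± 0.08 with PPLG-SA, 1.05 ± 0.08 with PPLG-2V-SA and 1.45 ± 0.08 with PPLG-4V-SA. The PPLG libraries of all of these genes lay wholly above those of POx-SA. Tnfaip3 differed by 1.37 ± 0.14 with PPLG-SA, 1.28 ± 0.14 with PPLG-2V-SA and 1.30 ± 0.14 with PPLG-4V-SA (adjusted p = 2.72e-07, 3.82e-07 and 4.73e-07), so the 3 PPLG groups lay close together above POx-SA. Traf1 differed by 0.94 ± 0.18 with PPLG-SA, 1.12 ± 0.18 with PPLG-2V-SA and 1.28 ± 0.18 with PPLG-4V-SA. Birc3 differed by 0.71 ± 0.11 with PPLG-SA, 1.72 ± 0.11 with PPLG-2V-SA and 0.91 ± 0.11 with PPLG-4V-SA, highest with PPLG-2V-SA.

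Irak3 was lower than with POx-SA by 1.17 ± 0.14 with PPLG-SA, 1.29 ± 0.14 with PPLG-2V-SA and 0.88 ± 0.14 with PPLG-4V-SA (adjusted p = 1.47e-06, 2.97e-07 and 2.99e-05). Tollip was lower by 0.65 ± 0.09, 1.69 ± 0.10 and 1.08 ± 0.09 in the same order, and Rela by 0.65 ± 0.11, 0.71 ± 0.11 and 0.72 ± 0.11. Each of these calls against POx-SA held under all alternatives. Nfkbia was at -0.16 (95% interval -0.38 to 0.07), 0.07 (95% interval -0.16 to 0.29) and 0.21 (95% interval -0.01 to 0.44) against POx-SA.

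Within the PPLG polymers, 5 rose and 12 fell, against 14.7% and 13.2% of all genes (27.9% in either direction), for PPLG-2V-SA against PPLG-SA, and on plain library totals and on log2(FPKM + 1) the split was 6 and 8. The genes in which PPLG-2V-SA stood apart came from several roles. Nfkbie was higher than with PPLG-SA (1.39 ± 0.20, adjusted p = 6.88e-05), as were Tnip3 (1.34 ± 0.18, adjusted p = 3.11e-05) and Birc3 (1.01 ± 0.11, adjusted p = 4.21e-06). Peli1 (-1.13 ± 0.19, adjusted p = 2.71e-04), Tollip (-1.04 ± 0.09, adjusted p = 5.03e-07), Ly96 (-0.91 ± 0.18, adjusted p = 0.00138), Nfkbiz (-0.67 ± 0.13, adjusted p = 0.00126) and Ticam1 (-0.64 ± 0.13, adjusted p = 0.00109) were lower. For PPLG-4V-SA against PPLG-2V-SA 7 rose and 3 fell, against 7.53% and 4.47% of all genes (12.0% in either direction). Birc3 (-0.80 ± 0.11, adjusted p = 7.57e-05) and Nfkbie (-0.85 ± 0.19, adjusted p = 0.00668) were lower with PPLG-4V-SA. Ticam1 (0.63 ± 0.12, adjusted p = 0.00234), Tollip (0.61 ± 0.09, adjusted p = 2.28e-04), Nfkbiz (0.59 ± 0.13, adjusted p = 0.00692) and Nfkb2 (0.40 ± 0.08, adjusted p = 0.00295) were higher.

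For PPLG-4V-SA against PPLG-SA 1 rose and 1 fell, against 1.08% and 0.579% of all genes (1.65% in either direction), and on log2(FPKM + 1) the split was 2 and 1. Bcl3, the gene that rose, stood at 29.0, 33.4 and 29.0 CPM with PPLG-SA and 45.5, 43.4 and 47.5 CPM with PPLG-4V-SA (0.58 ± 0.14, adjusted p = 0.0411). Tollip, the gene that fell, stood at 112, 112 and 112 CPM and 80.4, 85.5 and 83.5 CPM (-0.43 ± 0.09, adjusted p = 0.0261). The libraries did not overlap in either, but each call ended when any 1 of the 6 libraries was left out. For Bcl3 the call ended without PPLG-SA replicate 1 (0.55, adjusted p = 0.179), PPLG-SA replicate 2 (0.65, adjusted p = 0.0857), PPLG-SA replicate 3 (0.54, adjusted p = 0.144), PPLG-4V-SA replicate 1 (0.58, adjusted p = 0.148), PPLG-4V-SA replicate 2 (0.61, adjusted p = 0.0796) or PPLG-4V-SA replicate 3 (0.55, adjusted p = 0.152). For Tollip it ended without PPLG-SA replicate 1 (-0.43, adjusted p = 0.120), PPLG-SA replicate 2 (-0.43, adjusted p = 0.0964), PPLG-SA replicate 3 (-0.43, adjusted p = 0.0933), PPLG-4V-SA replicate 1 (-0.41, adjusted p = 0.137), PPLG-4V-SA replicate 2 (-0.45, adjusted p = 0.0681) or PPLG-4V-SA replicate 3 (-0.43, adjusted p = 0.111). The 95% interval of the difference was -0.12 to 0.23 for Nfkb1, -0.33 to 0.24 for Ikbke and 0.14 to 0.59 for Nfkbia.

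The polymer groups were also set against the untreated libraries, to place each gene against cells given neither agent. Nfkbia, Ripk2, Rnf31 and Map3k8 were below their untreated level with each polymer, and Ticam1, Ticam2, Ripk1, Traf1, Birc3, Relb and Nfkb2 were above it. With POx-SA 17 rose and 8 fell, against 30.4% and 27.9% of all genes (58.3% in either direction). With PPLG-SA 18 rose and 10 fell, against 35.1% and 32.8% of all genes (67.9% in either direction), with PPLG-2V-SA 17 rose and 10 fell, against 38.2% and 35.8% of all genes (74.0% in either direction), and with PPLG-4V-SA 18 rose and 9 fell, against 36.7% and 33.6% of all genes (70.3% in either direction). On plain library totals the splits were 27 and 6, 28 and 5, 31 and 6 and 32 and 6 in this order, and on log2(FPKM + 1) 26 and 6, 28 and 5, 33 and 6 and 33 and 5, with the median of all genes between 0.22 and 0.50 on plain totals.

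Nfkbia lay below the untreated libraries by 2.59 ± 0.11 with POx-SA, 2.75 ± 0.11 with PPLG-SA, 2.52 ± 0.11 with PPLG-2V-SA and 2.38 ± 0.11 with PPLG-4V-SA (adjusted p = 1.95e-11, 1.99e-12, 2.40e-12 and 8.17e-12). Ripk2 changed by -0.84 ± 0.09 with POx-SA, -0.80 ± 0.09 with PPLG-SA, -1.16 ± 0.09 with PPLG-2V-SA and -0.90 ± 0.09 with PPLG-4V-SA and Map3k8 by -0.64 ± 0.12 with POx-SA, -1.34 ± 0.12 with PPLG-SA, -1.45 ± 0.12 with PPLG-2V-SA and -1.12 ± 0.12 with PPLG-4V-SA, all called lower. Irak3 was not called with POx-SA (-0.30, 95% interval -0.59 to -0.02) and was lower than untreated by 1.47 ± 0.14 with PPLG-SA, 1.59 ± 0.14 with PPLG-2V-SA and 1.18 ± 0.14 with PPLG-4V-SA. With POx-SA, Ikbke (-1.65 ± 0.14, adjusted p = 3.91e-08) and Tnfaip3 (-1.66 ± 0.14, adjusted p = 3.32e-08) lay below the untreated libraries.

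Birc3 lay above the untreated libraries by 1.37 ± 0.12 with POx-SA, 2.09 ± 0.12 with PPLG-SA, 3.09 ± 0.12 with PPLG-2V-SA and 2.29 ± 0.12 with PPLG-4V-SA (adjusted p = 4.03e-08, 9.25e-11, 6.10e-13 and 3.07e-11). Ticam1 did so by 1.98 ± 0.14 with POx-SA, 2.36 ± 0.14 with PPLG-SA, 1.72 ± 0.14 with PPLG-2V-SA and 2.36 ± 0.14 with PPLG-4V-SA, Ticam2 by 1.48 ± 0.15 with POx-SA, 2.32 ± 0.14 with PPLG-SA, 2.02 ± 0.14 with PPLG-2V-SA and 2.08 ± 0.14 with PPLG-4V-SA and Traf1 by 1.25 ± 0.20 with POx-SA, 2.19 ± 0.20 with PPLG-SA, 2.37 ± 0.20 with PPLG-2V-SA and 2.53 ± 0.20 with PPLG-4V-SA. These genes had also risen with LPS alone. Nfkb1 was not called with POx-SA (0.18, 95% interval 0.00 to 0.36) and lay above untreated by 1.39 ± 0.09 with PPLG-SA, 1.65 ± 0.09 with PPLG-2V-SA and 1.44 ± 0.09 with PPLG-4V-SA. Nfkb2 lay above untreated with all, by 0.35 ± 0.08 with POx-SA, 1.65 ± 0.09 with PPLG-SA, 1.39 ± 0.09 with PPLG-2V-SA and 1.79 ± 0.09 with PPLG-4V-SA.

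Gene length was taken into account in the deposited FPKM values, which were used to order the levels of the members. Nfkbia was the member with the highest FPKM in each of the 6 groups, at 893 ± 10.7 untreated, 723 ± 32.4 with LPS, 178 ± 34.2 with POx-SA, 185 ± 8.75 with PPLG-SA, 231 ± 14.9 with PPLG-2V-SA and 252 ± 8.43 with PPLG-4V-SA (SD, n = 3). Untreated, the next level was that of Tnip1 at 50.7 ± 0.336 FPKM. With PPLG-SA and PPLG-2V-SA the next was Nfkb1, at 82.6 ± 3.26 and 106 ± 3.62 FPKM, against 24.0 ± 0.813 FPKM untreated and 34.4 ± 4.69 FPKM with LPS. At the low end were Ripk1 untreated (1.29 ± 0.303 FPKM), Tab3 with LPS (4.01 ± 1.20 FPKM), PPLG-2V-SA (3.15 ± 0.286 FPKM) and PPLG-4V-SA (3.27 ± 0.284 FPKM), and Nfkbie with POx-SA (2.91 ± 1.02 FPKM) and PPLG-SA (2.70 ± 0.385 FPKM).

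The members differed in how far their levels moved across the study. The highest of the 6 group means of CPM over the lowest was 8.53 for Birc3, 7.02 for Irak3, 6.71 for Nfkbia, 5.78 for Traf1 and 5.16 for Ticam1. Next came Ripk1 at 5.10, Tnip3 at 5.10, Ticam2 at 5.01 and Ikbke at 4.20, so that members of most roles had wide ranges. It was 1.25 for Ikbkb, 1.27 for Traf3, 1.29 for Tab1, 1.35 for Chuk and 1.44 for Tbk1. The IkB kinases and the TRAF and RIP proteins thus had members at both ends. Of the NF-kB subunits Nfkb2 (3.47) and Nfkb1 (3.14), both precursor genes, had the widest ranges, and Relb (1.86), Rel (1.77) and Rela (1.65) narrower ones.

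Lists of genes around the pathway were read in the same fit. Of the genes for Toll-like receptors and the LPS co-receptor Cd14, 11 of 13 were abundant enough to test. After LPS 9 rose, with a median log2 fold change of 0.82, where 30.8% of all genes rose. Tlr2, the receptor for bacterial lipoproteins, stood at 77.1 CPM against 23.9 CPM, log2 fold change 1.69 ± 0.10. Against LPS, 6 rose and 2 fell with POx-SA, 7 rose and 2 fell with PPLG-SA, 8 rose and 1 fell with PPLG-2V-SA and 8 rose and 1 fell with PPLG-4V-SA. Of all genes 22.2%, 29.2%, 30.8% and 28.0% rose and 24.1%, 30.7%, 30.2% and 27.1% fell in these comparisons, in the same order. Tlr2 fell with POx-SA (51.7 CPM against 77.1 CPM, log2 fold change -0.58 ± 0.09). It rose with PPLG-2V-SA (183 CPM, 1.24 ± 0.09) and PPLG-4V-SA (125 CPM, 0.69 ± 0.09). Tlr7, a receptor for single-stranded RNA, rose with POx-SA (40.6 CPM against 18.1 CPM, log2 fold change 1.16 ± 0.17), PPLG-SA (43.1 CPM, 1.25 ± 0.17), PPLG-2V-SA (74.1 CPM, 2.03 ± 0.17) and PPLG-4V-SA (57.1 CPM, 1.65 ± 0.17), and Cd14 fell with PPLG-SA (571 CPM against 1415 CPM, log2 fold change -1.31 ± 0.13). Cd14 stood at 785 ± 63.0 CPM with PPLG-2V-SA and 861 ± 50.8 CPM with PPLG-4V-SA, also below LPS. With POx-SA it stood at 1469 ± 266 CPM.

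Of further components of the pathway 41 of 43 were tested, and after LPS 17 rose and 6 fell (30.8% and 28.4% of all genes did). Against LPS, 7 rose and 10 fell with POx-SA, 11 rose and 10 fell with PPLG-SA, 13 rose and 14 fell with PPLG-2V-SA and 14 rose and 9 fell with PPLG-4V-SA, beside 22.2% to 30.8% of all genes that rose and 24.1% to 30.7% that fell. The counts against LPS lay near the shares of all genes. After LPS itself more of the list rose and fewer fell than those shares. Map3k14, the gene of the kinase NIK, which drives processing of the Nfkb2 product, fell with POx-SA (19.5 CPM against 44.3 CPM, log2 fold change -1.18 ± 0.10), PPLG-SA (20.2 CPM against 44.3 CPM, log2 fold change -1.13 ± 0.10) and PPLG-2V-SA (21.0 CPM against 44.3 CPM, log2 fold change -1.08 ± 0.10). Usp18 had the smallest p of this list in 2 comparisons. It rose with LPS (173 CPM against 49.5 CPM, log2 fold change 1.80 ± 0.11) and fell with POx-SA against LPS (24.0 CPM against 173 CPM, log2 fold change -2.85 ± 0.12). Nfkbid, a further nuclear IkB protein, fell with LPS (29.6 CPM against 90.3 CPM, log2 fold change -1.61 ± 0.12) and rose with POx-SA against LPS (78.9 CPM against 29.6 CPM, log2 fold change 1.42 ± 0.12). Zc3h12a, an RNase that degrades inflammatory transcripts, fell with PPLG-SA (27.9 CPM against 113 CPM, log2 fold change -2.01 ± 0.14) and PPLG-4V-SA (39.4 CPM, -1.52 ± 0.14).

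Of the MAP kinase and AP-1 genes below TAK1 and Tpl2 26 of 26 were tested, and after LPS 10 rose and 11 fell (30.8% and 28.4% of all genes did). Against LPS, 3 rose and 17 fell with POx-SA, 4 rose and 18 fell with PPLG-SA, 5 rose and 17 fell with PPLG-2V-SA and 3 rose and 18 fell with PPLG-4V-SA, with medians of -0.62, -0.96, -1.05 and -0.69 beside the medians of all genes given above. Of all genes 22.2%, 29.2%, 30.8% and 28.0% rose and 24.1%, 30.7%, 30.2% and 27.1% fell. The AP-1 gene Junb fell with POx-SA (583 CPM against 1801 CPM, log2 fold change -1.63 ± 0.13), PPLG-SA (209 CPM, -3.11 ± 0.14) and PPLG-4V-SA (289 CPM, -2.64 ± 0.14). Dusp2, a MAP kinase phosphatase, fell with POx-SA (66.0 CPM against 193 CPM, log2 fold change -1.55 ± 0.12), PPLG-SA (27.3 CPM, -2.82 ± 0.13) and PPLG-2V-SA (22.0 CPM, -3.13 ± 0.13).

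Of effector genes known as NF-kB targets 33 of 35 were tested, and after LPS 13 rose and 12 fell (30.8% and 28.4% of all genes did). Against LPS, 1 rose and 22 fell with POx-SA, 9 rose and 22 fell with PPLG-SA, 5 rose and 21 fell with PPLG-2V-SA and 9 rose and 19 fell with PPLG-4V-SA, with medians of -0.87, -1.05, -0.68 and -0.63, beside the same shares of all genes as for the MAP kinase list. Il10, the anti-inflammatory cytokine, rose with LPS (142 CPM against 13.1 CPM, log2 fold change 3.44 ± 0.20) and fell with POx-SA against LPS (2.25 CPM against 142 CPM, log2 fold change -5.97 ± 0.24). Cxcl2 fell with PPLG-SA (57.8 CPM against 911 CPM, log2 fold change -3.98 ± 0.14), PPLG-2V-SA (43.2 CPM, -4.40 ± 0.14) and PPLG-4V-SA (60.8 CPM, -3.90 ± 0.14). Plau, the urokinase gene, rose with PPLG-SA (471 CPM against 16.8 CPM, log2 fold change 4.81 ± 0.15) and PPLG-4V-SA (398 CPM, 4.57 ± 0.15). Where a gene of these lists is given for some of the polymers, the others were not among the comparisons in which it had 1 of the smallest p-values of its list. Nothing follows for them from that omission, and the gene may have moved there too. The effector list held genes that moved in both directions with each polymer.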

How the data were processed

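RNA of RAW264.7 cells was measured by sequencing in 18 libraries, 3 in each of 6 groups taken from the labels. The authors deposited whole-number read counts per gene, and per the table's title and values an FPKM table scaled by the authors to gene length and library size. Per the submitters' processing notes the build was GRCm39 and CASAVA was used. How reads were aligned and counted, and whether by strand, is not given in the sources used here. All columns matched 1 sample by title, and 0 belonged to no sample.

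The counts, not rounded or altered, were tested in R 4.3.3 with edgeR 4.0.16, by its quasi-likelihood F test. The filter on low counts was filterByExpr with a minimum count of 10 and a minimum total of 15. Libraries were scaled by TMM, 1 model with a term per group held all 18 libraries, and Benjamini-Hochberg adjustment was made within each of the 15 comparisons. SE is the log2 fold change divided by the square root of F, and 95% intervals use the t distribution. CPM were computed from the counts on TMM-scaled library sizes, except the sums of marker genes, which are on plain library totals. The test was also run on counts simulated with the same spread for all genes and groups. That run cannot show how the test does with the larger spread within LPS and POx-SA. FPKM values were used for levels between genes and, with limma 3.58.1 on log2(FPKM + 1) or log2(FPKM + 0.1), as an alternative. Fold changes on that scale understate the change of low genes. Other alternatives were DESeq2 1.42.0 (its test, and its size factors), plain library totals, no filter or 1 CPM in 3 libraries, a fit of only the groups compared, adjustment over all comparisons, the replicate number as a block, and leaving out libraries.

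A rule that every same-numbered pair's deviations correlate above 0.1 was met by LPS with POx-SA (0.166, 0.164 and 0.739 across genes) and by no other groups. Deviations were taken from the mean of 3 libraries, so these correlations are not independent of each other. The labels state no pairing. The members, their roles and the other gene lists were chosen with earlier results of these data known. Values per library are given for Myd88, Ticam1, Irak3, Nfkb1, Rela, Nfkbia, Nfkbiz and Tnfaip3 and for up to 5 further members per comparison with LPS or of LPS with untreated, those called without overlap at 5 CPM or more with the largest fold change. From each other list up to 3 called genes of smallest p per comparison could be named. The RefSeq table of GRCm38 held all 44 members and served for names and for overlapping genes only.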

Additional observations from a re-analysis of the deposited data

How the results depend on the processing

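Of 361 calls of members over the 15 comparisons, 258 kept their direction and their side of the threshold under every alternative run and 103 were lost under at least 1. Plain library totals and the FPKM values moved the median log2 fold change of all genes to between -0.0853 and 0.523 (plain totals), -0.0656 and 0.382 (FPKM + 1) and -0.107 and 0.529 (FPKM + 0.1), and the 21 values that changed sign all arose there. On log2(FPKM + 1) and log2(FPKM + 0.1), against untreated, Irak1 with LPS turned to 0.0676 and 0.0721, Ripk2 with LPS to 0.0685 and 0.0698, Bcl3 with PPLG-SA to 0.0479 and 0.050 and Myd88 with PPLG-SA to 0.00818 and 0.00841, and Ikbkg with LPS to 0.000391 on log2(FPKM + 1). On plain totals, log2(FPKM + 1) and log2(FPKM + 0.1), against untreated, Rela turned to 0.20, 0.46 and 0.49 with PPLG-2V-SA and to 0.16, 0.37 and 0.39 with PPLG-4V-SA, and Tnfaip3 to 0.11, 0.13 and 0.14 with PPLG-2V-SA and to 0.0882, 0.12 and 0.13 with PPLG-4V-SA. The cause was not tested beyond the shift of all genes.

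The count of called members moved by over 1.5 times in 2 of the 15 comparisons. For PPLG-4V-SA against PPLG-SA, with 2 calls, the count was 5 by the DESeq2 test, 19 in a fit of these groups alone, 1 with the replicate number as a block, 10 with p-values adjusted over all 15 comparisons together, and 0 to 0 with a replicate left out. For PPLG-4V-SA against PPLG-2V-SA, with 10 calls, it was 20 in a fit of these groups alone and 16 with p-values adjusted over all comparisons. Leaving out 1 library at a time gave 24 to 28 called members for LPS against untreated, and against LPS it gave 20 to 26 for POx-SA, 26 to 29 for PPLG-SA, 28 to 32 for PPLG-2V-SA and 25 to 29 for PPLG-4V-SA.

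With the replicate number as a block over all 18 libraries, 29 members were called for LPS against untreated and 25 for POx-SA against LPS. In LPS and POx-SA the numbers met the rule of correlations above 0.1, though the labels state no pairing. In a fit of these 6 libraries, which was added after the data were seen, the block gave 19 against 24. The calls it ended are given beside the results. No other groups met that rule with all of their numbers, but single pairs of same-numbered libraries also correlated above 0.1. Replicate 3 of PPLG-2V-SA did so at 0.270 with that of LPS and at 0.256 with that of POx-SA. The lowest raw count of a member was 44 in a library, and such members have the least precise values.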
